A study of Homo sapiens with 16 samples.

Results

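The H3K27me3 regions found only in MCF-10A numbered 7268 of 65122 merged autosomal H3K27me3 regions, or 11.2%. They were chosen by merging the peaks of the 4 H3K27me3 lists wherever these overlapped by at least 1 bp, and by keeping each merged region that held a peak in each MCF-10A replicate but none in either replicate of MDA-MB-231. The H3K27me3 peaks of all 4 lists thus chose the regions, and H3K27me3 values of the regions are given as a description with no test. Of the 11340 merged regions with a peak in both MCF-10A lists, 64.1% were MCF-10A-only.

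The study profiled histone modifications by ChIP-seq in 2 human breast cell lines, within work on DNA attached to the nuclear matrix. MDA-MB-231 is a breast cancer line that the labels describe as derived from a metastatic site, grown as in an earlier protocol that the labels cite without detail. MCF-10A is a breast epithelial line that does not form tumours, labelled as luminal ductal cells and grown in DMEM/F12 with EGF, insulin, cholera toxin and hydrocortisone. Antibodies against H3K27me3, H3K4me3 and H3K9me2 were each used on subconfluent cells of both lines with 2 replicates that the labels call biological, and the 4 input samples have no peak list here. Each line stands for 1 lab stock, so a difference between the lines cannot be told apart from any other property of these stocks, and p-values measure only the spread between the replicates. The labelled cell types were not checked against marker genes here.

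H3K27me3 is placed by Polycomb repressive complex 2, whose catalytic subunit is usually EZH2, and it is known for the silencing of developmental genes, often over wide stretches of chromatin. H3K4me3 marks the start sites of active genes and of genes poised for activation. A stretch that carries H3K4me3 together with H3K27me3 is called bivalent. H3K9me2 is placed mainly by G9a and GLP and is typical of silent chromatin, often in broad blocks.

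The deposited lists give peaks with the authors' score, which was 50 or more and served here to order peaks of the same list or to drop weak ones. Depth is unknown, since read counts are not part of the lists. One list stood apart. The H3K27me3 list of MDA-MB-231 replicate 1 held 8408 autosomal peaks over 6.5 Mb, against 30238 peaks over 19.5 Mb in MDA-MB-231 replicate 2. The MCF-10A lists held 28393 and 28371 peaks over 21.2 and 21 Mb. Without MDA-MB-231 replicate 1 the rule gave 7671 regions, and without MDA-MB-231 replicate 2 it gave 9869. The requirement for both MCF-10A lists weighed more, since the rule gave 21147 regions without MCF-10A replicate 1 and 21091 without MCF-10A replicate 2. The H3K4me3 lists were alike in length, with 16008 and 15642 peaks in MDA-MB-231 and 15015 and 16174 in MCF-10A. The H3K9me2 lists were shorter in MDA-MB-231, at 6086 and 4980 peaks, than in MCF-10A, at 10418 and 8701 peaks.

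The MCF-10A-only regions covered 8.48 Mb and were narrow, with a median width of 996 bp and extremes of 364 and 8127 bp. Regions with a peak in both MCF-10A lists and in 1 MDA-MB-231 list had a median width of 1381 bp, and those in all 4 lists 2075 bp. The median top score in an MCF-10A-only region was 88.7 in MCF-10A replicate 1 and 87.6 in MCF-10A replicate 2. Many regions lay close to the limit of the rule: in 2340 of them (32.2%) the weaker of the MCF-10A peaks scored under 60. Just outside the rule were 2901 regions with a peak in both MCF-10A lists and in 1 MDA-MB-231 list. The MDA-MB-231 peak came from replicate 2 in 2533 of these (87.3%), and it scored under 60 in 531 (18.3%). A further 25260 regions had a peak in 1 MCF-10A list and in no other.

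Some MCF-10A-only regions lay close to H3K27me3 of MDA-MB-231, and others lay in long stretches without it. The nearest MDA-MB-231 H3K27me3 peak of either replicate was a median of 19.9 kb away. For 2235 regions (30.8%) it lay within 5 kb, for 2219 (30.5%) beyond 100 kb and for 615 (8.46%) beyond 1 Mb. At 20 kb from the region centres towards higher coordinates, 0.784% and 2.92% of positions were under an H3K27me3 peak in MDA-MB-231, against 6.78% and 7.2% in MCF-10A. Both MCF-10A lists were thus higher around the regions as well. Positions around a region can fall on other MCF-10A-only regions, so these values describe the choice and carry no test.

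**Figure D1:**
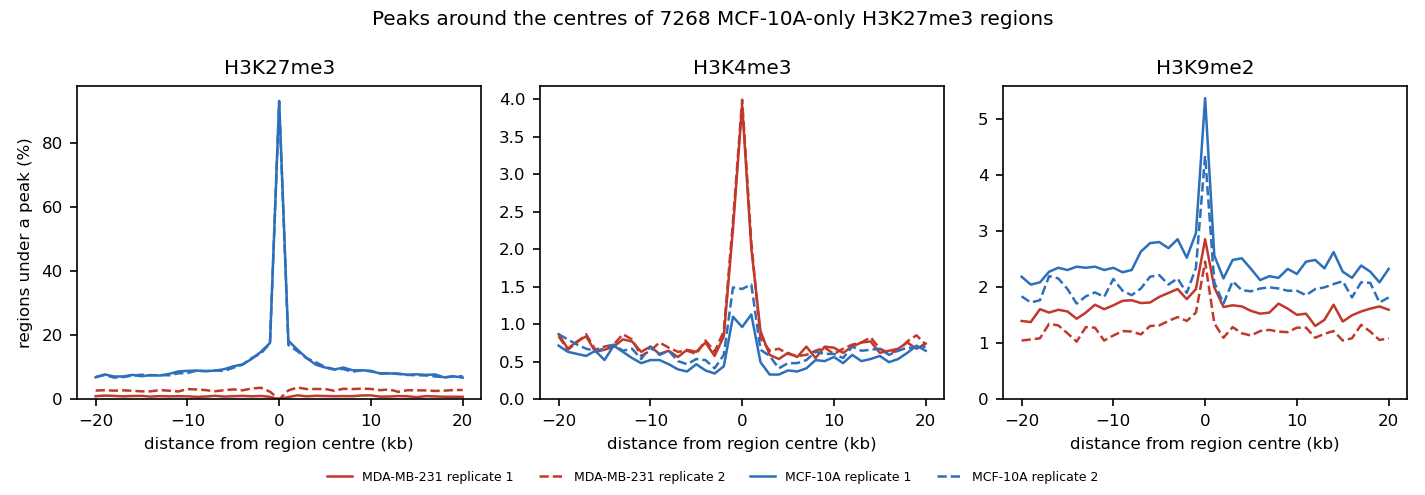
Share of the 7268 MCF-10A-only H3K27me3 regions (vertical axis, percent) that lie under a peak at each distance from the region centre (horizontal axis, kb), for each mark and each list. H3K27me3 is fixed at the centre by the choice of regions. H3K4me3 at the centre is higher in both MDA-MB-231 lists (3.92% and 3.99%) than in both MCF-10A lists (0.963% and 1.47%). H3K9me2 at the centre is lower in MDA-MB-231 (2.86% and 2.46%) than in MCF-10A (5.38% and 4.35%). At 20 kb towards higher coordinates H3K9me2 is also lower in MDA-MB-231 (1.6% and 1.09%) than in MCF-10A (2.33% and 1.82%). H3K4me3 there is 0.743% and 0.729% in MDA-MB-231 and 0.647% and 0.702% in MCF-10A.

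The strongest members are named here by the lower of their MCF-10A score percentiles, in hg19 coordinates, counting from 1. The first was chr18:76773927-76777395, a region of 3469 bp with scores of 2269 and 2193 in the MCF-10A lists. It stood alone, and the nearest MDA-MB-231 H3K27me3 peak was 4573 kb away. The next was chr7:43150819-43154334, with scores of 1304 and 1110, followed by chr8:145560591-145564380 with 1161 and 1110. Both of these lay nearer to H3K27me3 of MDA-MB-231, with the nearest peak at 26.1 kb and 4.75 kb. The ninth, chr6:127437819-127442758, lay 9845 kb from any MDA-MB-231 H3K27me3 peak. It carried H3K4me3 over 1360 and 1435 bp in MDA-MB-231 and over 0 and 0 bp in MCF-10A. Of the 20 strongest regions, 2445 to 6843 bp wide, 13 carried no H3K4me3 peak in any list and 1 carried any H3K9me2. H3K4me3 in both MDA-MB-231 lists and neither MCF-10A list was found on 3. The opposite pattern was found on chr9:112523-115034, with 0 and 0 bp in MDA-MB-231 and 795 and 915 bp in MCF-10A. At chr22:28193561-28197648 H3K4me3 covered 397 and 0 bp in MDA-MB-231 and 316 and 563 bp in MCF-10A. Genes are not assigned to any region, and no sequence is given, since no genome or gene annotation of hg19 was used here.

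The regions were unevenly spread over the chromosomes. Chromosome 8 held 996 of them (13.7%), chromosome 7 held 724, chromosome 2 held 553 and chromosome 16 held 552. On chromosome 8, 80.8% of the regions found in both MCF-10A lists were MCF-10A-only, and on chromosome 16 the share was 79.9%. Over the 22 autosomes the share had a median of 63.7%, a low of 34.4% on chromosome 20 and a high of 85.1% on chromosome 18. Chromosome 8 took 2.65% and 2.25% of all H3K27me3-covered bases in MDA-MB-231, against 10.2% and 10.7% in MCF-10A. Chromosome 16 took 1.3% and 1.13% in MDA-MB-231, against 6.36% and 6.28% in MCF-10A. On chromosome 20 the order was the opposite, with 12.9% and 12% in MDA-MB-231 and 4.48% and 4.49% in MCF-10A.

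The H3K9me2 lists were spread over these chromosomes in the same uneven way. Chromosome 8 took 3.29% and 3.64% of H3K9me2-covered bases in MDA-MB-231, against 12.2% and 13% in MCF-10A, and chromosome 16 took 0.323% and 0.529% in MDA-MB-231, against 6.47% and 6.74% in MCF-10A. H3K4me3 differed less, with 3.7% and 3.72% on chromosome 8 in MDA-MB-231 against 4.1% and 4.02% in MCF-10A, and with 4.1% and 4.14% on chromosome 16 in MDA-MB-231 against 4.92% and 4.87% in MCF-10A. The part of these chromosome-wide differences in the choice of the regions was not tested.

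**Figure D2:**
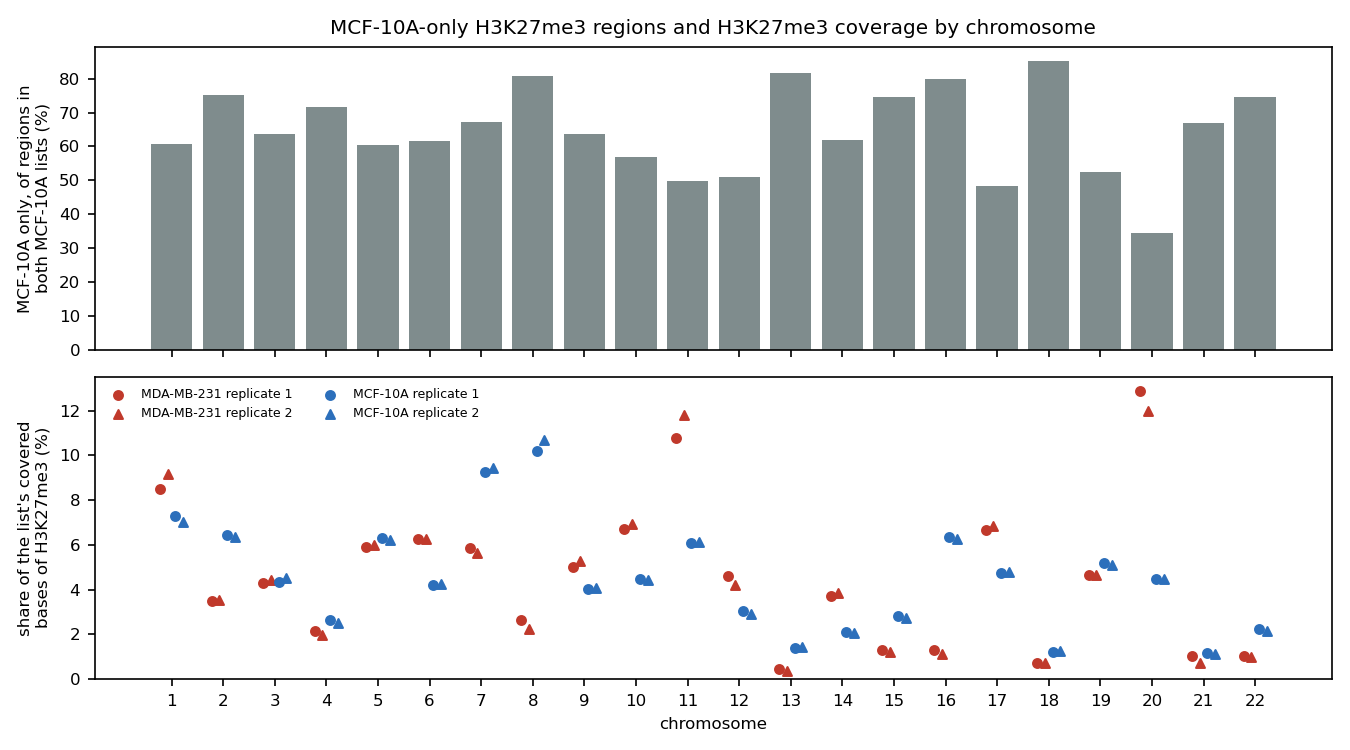
Top, the share of regions with an H3K27me3 peak in both MCF-10A lists that were MCF-10A-only, as percent per autosome. Bottom, the share of each list's H3K27me3-covered bases on each autosome (percent, 1 point per list); chromosomes 8 and 16 are low in both MDA-MB-231 lists and chromosome 20 is high in both.

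MCF-10A-only regions often stood in chains. When neighbours no more than 50 kb apart were joined, the 7268 regions formed 3216 chains. Of these, 1884 were single regions (25.9% of all regions), and 313 were domains of 5 or more that held 2807 regions (38.6%). Such domains spanned 30.9 Mb in all, with a median of 80 kb each, and 12 of them held 20 or more regions, 316 in all. The median gap between neighbouring MCF-10A-only regions was 33.9 kb. The gap was 50.9 kb between regions in both MCF-10A lists and 1 MDA-MB-231 list, 72.6 kb between regions in all 4 lists and 52.4 kb between MDA-MB-231-only regions. In those classes 29%, 24.3% and 29.3% of regions lay in domains of 5 or more. All 11340 regions in both MCF-10A lists were, as 1 set, more closely spaced than the MCF-10A-only ones among them, with a median gap of 15.3 kb and 56.1% in domains of 5 or more. These sets differ in number, at 2901, 1171, 1971 and 11340 regions, and the part of their number in the gaps was not tested. The share in domains depended on how densely regions were called, and it was 64.6% when MCF-10A replicate 1 was left out, 64% without MCF-10A replicate 2 and 21.6% with peaks of score 100 or more.

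Across the spans of the 313 domains, H3K27me3 peaks covered 1.08% and 3.23% in MDA-MB-231, against 16.3% and 16.2% in MCF-10A. MDA-MB-231 was not bare of the mark there: 147 and 203 of the domains held at least 1 H3K27me3 peak in its lists. H3K4me3 peaks covered 0.483% and 0.496% of the spans in MDA-MB-231, against 0.25% and 0.333% in MCF-10A. H3K9me2 peaks covered 1.8% and 1.39% in MDA-MB-231, against 3.64% and 3.06% in MCF-10A, and 84 and 76 domains held an H3K9me2 peak in MDA-MB-231, against 186 and 162 in MCF-10A. H3K4me3 thus covered more, and H3K9me2 less, of the spans in both MDA-MB-231 lists than in either MCF-10A list. The H3K9me2 lists also covered less of all autosomes in MDA-MB-231, at 15.1 and 10.4 Mb, against 18.6 and 15.3 Mb in MCF-10A. Of each list's H3K9me2-covered bases, the domains held 3.68% and 4.11% in MDA-MB-231 and 6.03% and 6.16% in MCF-10A. For H3K4me3 they held 0.712% and 0.729% in MDA-MB-231 and 0.397% and 0.482% in MCF-10A.

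Of the 10 domains with the most members, 4 lay on chromosome 8, 5 on chromosome 16 and 1 on chromosome 15. The first, chr8:11412664-11603110, chained 41 regions over 190 kb. Its H3K27me3 coverage was 1.15% and 2.92% in MDA-MB-231, against 37.5% and 36.1% in MCF-10A. The second, chr16:86083766-86557167, held 37 regions over 473 kb, with H3K27me3 over 2.18% and 6.38% in MDA-MB-231 and 27.8% and 30.2% in MCF-10A. The most densely covered of the 10 was chr8:6788974-6929879 with 31 regions, where H3K27me3 covered 0.908% and 1.96% in MDA-MB-231 and 45.8% and 42.8% in MCF-10A. This domain was also the one of the 10 with most H3K9me2, at 2.55% and 1.84% in MDA-MB-231 and 17.7% and 17.1% in MCF-10A. One of the 10 held no MDA-MB-231 H3K27me3 peak at all: chr15:69889952-70317746 had 0 and 0 peaks in MDA-MB-231, against 61 and 66 in MCF-10A. All 10 domains were covered by more H3K9me2 in both MCF-10A lists than in both MDA-MB-231 lists. H3K4me3 was listed at 0 in all 4 lists in 6 of the 10.

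**Figure D3:**
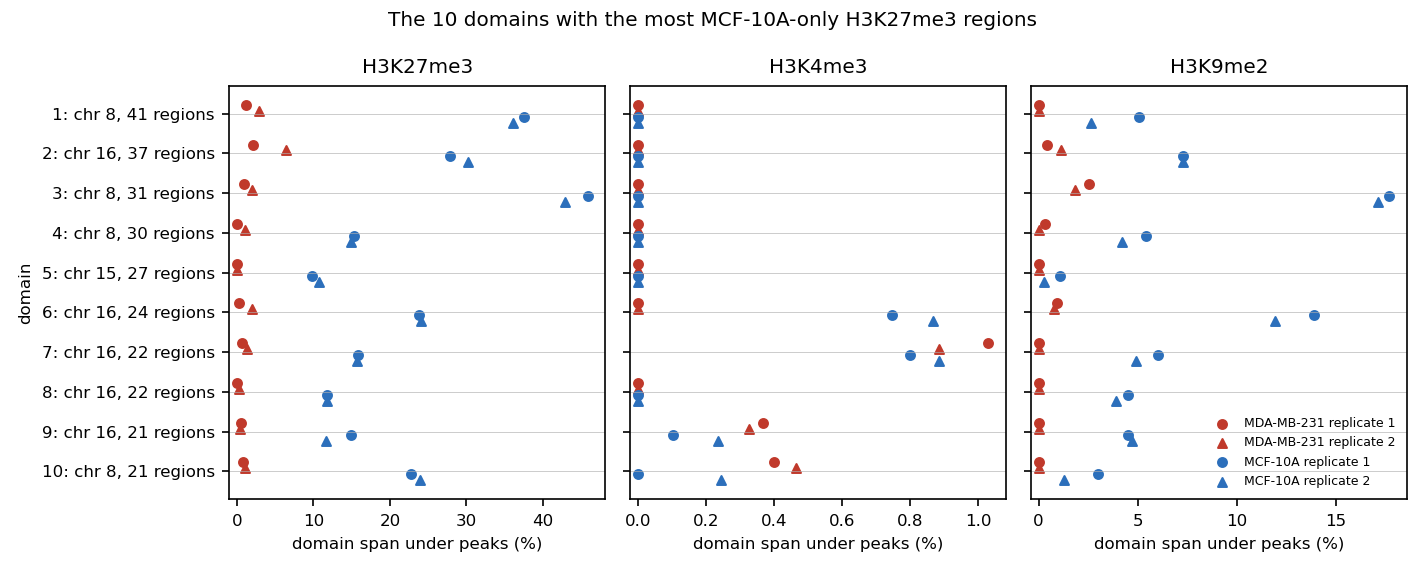
Percent of the span of each of the 10 domains with the most MCF-10A-only regions that is covered by peaks of each mark, with 1 point per list. H3K27me3 and H3K9me2 points of MDA-MB-231 lie left of those of MCF-10A in each domain, and H3K4me3 is at 0 in all lists in 6 domains.

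Whether regions without H3K27me3 in MDA-MB-231 carried an active mark there was asked with the H3K4me3 lists, which the choice of regions did not use. An H3K4me3 peak touched 434 (5.97%) and 446 (6.14%) of the MCF-10A-only regions in MDA-MB-231, against 213 (2.93%) and 299 (4.11%) in MCF-10A. Both MDA-MB-231 lists lay above both MCF-10A lists. They did so over all merged H3K27me3 regions too, with 1.66% and 1.74% in MDA-MB-231 and 1.18% and 1.58% in MCF-10A. H3K4me3 in both MDA-MB-231 lists and neither MCF-10A list was found on 187 MCF-10A-only regions (2.57%), against 0.628% of all 65122 merged H3K27me3 regions. The opposite pattern was found on 42 (0.578%), against 0.39% of all. A further 142 regions (1.95%, against 0.625% of all) carried H3K4me3 in all 4 lists, and so held peaks of both marks of a bivalent stretch in MCF-10A; whether both sat in the same cells cannot be told from bulk ChIP. Likewise a mark in fewer cells and a weaker mark per cell cannot be told apart. H3K4me3 in MDA-MB-231 only was found on 0.965% of the regions in both MCF-10A lists and 1 MDA-MB-231 list, on 1.71% of those in all 4 lists and on 0.152% of the MDA-MB-231-only regions. H3K4me3 in all 4 of its lists was found on 1.21%, 1.88% and 1.32% of these classes, so the 1.95% was not particular to the MCF-10A-only regions.

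**Figure D4:**
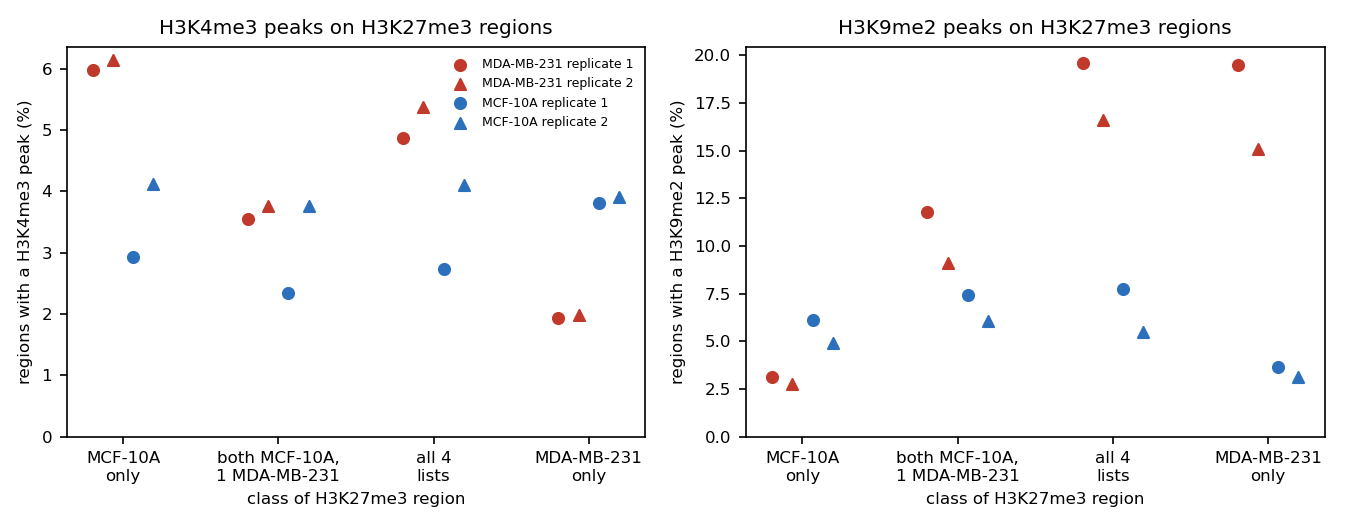
Percent of H3K27me3 regions that hold an H3K4me3 peak (left) or an H3K9me2 peak (right), for 4 classes of regions by the lists that hold H3K27me3, with 1 point per list. On MCF-10A-only regions both MDA-MB-231 points are above both MCF-10A points for H3K4me3 and below them for H3K9me2; on MDA-MB-231-only regions the order is the opposite for both marks.

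Counted from the side of H3K4me3, 547 of 17386 merged H3K4me3 regions touched an MCF-10A-only region. Of these 547, 165 (30.2%) were present in MDA-MB-231 alone, against 6.24% of all merged H3K4me3 regions, and 44 (8.04%) in MCF-10A alone, against 5.73% of all. Put the other way, an MCF-10A-only region was touched by 15.2% of the 1085 H3K4me3 regions present in MDA-MB-231 alone, by 4.41% of the 997 present in MCF-10A alone, by 1.42% of the 11967 in all 4 lists and by 3.15% of all H3K4me3 regions. In limma on log2 of covered bases plus 100 bp, with Benjamini-Hochberg adjustment over the 15212 H3K4me3 regions covered in at least 2 lists, 205 of the 457 tested on MCF-10A-only regions were higher in MDA-MB-231 (44.9%, against 9.93% of all regions tested). In the same fit 44 were lower (9.63%, against 8.49% of all). A region present in both lists of 1 line only passes the filter through that line and had to differ, which holds for 165 of the 205 higher and for all 44 lower. Leaving out MDA-MB-231 replicate 1 or 2, where such regions can no longer pass the filter, gave 18 and 21 higher; leaving out MCF-10A replicate 1 or 2 gave 1 and 0 lower.

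The 170 H3K4me3 regions present in all 4 lists are free of this limit, and more of these were wider in MDA-MB-231 than narrower. Their median covered length was 1438 and 1471 bp in MDA-MB-231, against 896 and 1076 bp in MCF-10A. Both MDA-MB-231 values exceeded both MCF-10A values in 113 of the 170 (66.5%, against 30.2% of all 11967 such regions), and both were lower in 10 (5.88%, against 20.8% of all). By limma 40 of the 170 were higher in MDA-MB-231 (23.5%, against 3.56% of all) and 0 were lower (against 2.47% of all), with 75 higher and 3 lower at an unadjusted p under 0.05. The median log2 ratio of MDA-MB-231 over MCF-10A was 0.41, with quartiles of 0.12 and 0.85, and over all 11967 it was 0.04. The count of 40 was 18 without MDA-MB-231 replicate 1, 21 without MDA-MB-231 replicate 2 and 61 without MCF-10A replicate 2.

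Among these, chr3:128205551-128209294 had the largest ratio, and it was chosen after its values were seen. Its H3K4me3 covered 3461 and 3489 bp in MDA-MB-231, against 582 and 674 bp in MCF-10A, a log2 ratio of 2.30 (SE 0.0956, n = 2 per line, limma adjusted p = 0.0013). The alternatives merged the peaks anew and took the widest region that overlapped it, so their ratios may not cover the same bases. That widest region had a ratio of 1.33 without MDA-MB-231 replicate 1 and 2.29 without MDA-MB-231 replicate 2. With peaks of score 100 or more the ratio was 3.68 (limma adjusted p = 0.138). The H3K4me3 region chr3:128205551-128209294 lay on chr3:128203697-128210539, one of the 20 strongest MCF-10A-only H3K27me3 regions. H3K4me3 at chr2:121493261-121495450, chosen after its values were seen, covered 2112 and 2190 bp in MDA-MB-231, against 637 and 367 bp in MCF-10A. The log2 ratio there was 1.94 with an SE of 0.263 (limma adjusted p = 0.0166).

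**Figure D5:**
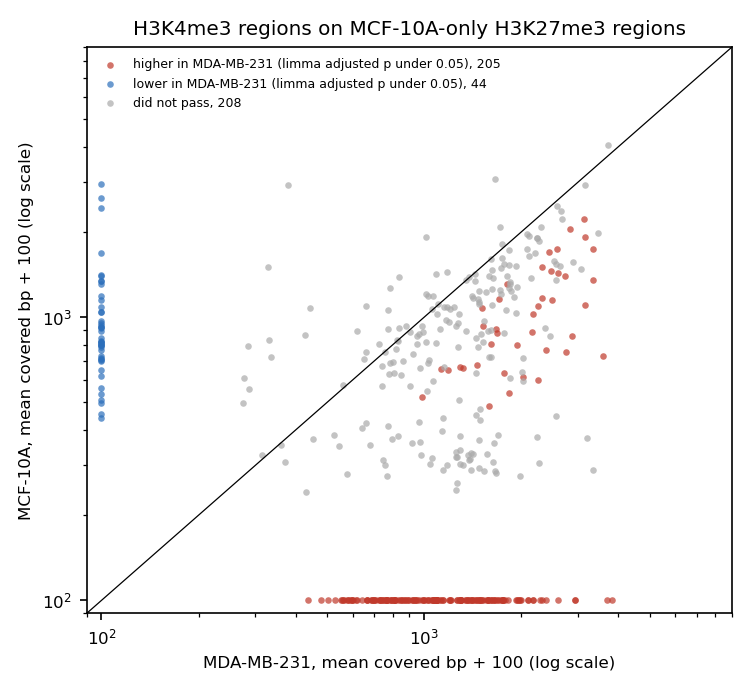
Mean covered bases plus 100 bp of the 457 tested H3K4me3 regions on MCF-10A-only H3K27me3 regions, MDA-MB-231 on the horizontal and MCF-10A on the vertical axis, both logarithmic; colours give the limma calls. The rows of points along the lower and left edges are regions listed at 0 in 1 line, and most regions covered in both lines lie below the diagonal, that is, wider in MDA-MB-231.

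H3K4me3 regions present in MDA-MB-231 alone are named by the lower of their MDA-MB-231 score percentiles. They were picked for their absence from MCF-10A, so their values are given as a description with no test. The first, chr16:65153995-65158046, covered 4052 and 3380 bp in MDA-MB-231 and was listed at 0 in both MCF-10A lists. It lay over the lone MCF-10A-only H3K27me3 region chr16:65154561-65157427. The second, chr1:184942226-184944034, covered 1732 and 1570 bp in MDA-MB-231 and 0 and 0 bp in MCF-10A. At chr5:83677818-83681532 the values were 3681 and 3489 bp in MDA-MB-231 and 0 and 0 bp in MCF-10A. At chr7:82071700-82074162, where H3K4me3 covered 2463 and 2102 bp in MDA-MB-231 and was listed at 0 in MCF-10A, the stretch spanned 2 MCF-10A-only regions. The 20 named regions were 1188 to 4052 bp wide, and 11 of them lay on an MCF-10A-only region with no other within 50 kb.

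Most of the 165 H3K4me3 regions present in MDA-MB-231 alone lay on bases that carried H3K27me3 in MCF-10A. Of the 165, 141 lay at least 50% inside MCF-10A-only regions, and the median share of their bases under MCF-10A H3K27me3 peaks was 74.3% in replicate 1 and 77.8% in replicate 2. By number, 158 touched 1 region and 7 touched more. They were wider than the other 920 MDA-MB-231-only H3K4me3 regions, with median widths of 1118 and 862 bp, and their median lower score percentile was 23.3 against 15.4. The part of width in the overlap was not tested.

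H3K4me3 in MDA-MB-231 only was more frequent on lone and wide MCF-10A-only regions than in the large domains. It was found on 89 lone regions (4.72%), on 64 in chains of 2 to 4 (2.48%) and on 34 in domains of 5 or more (1.21%). By width it was found on 1.03% of the narrowest group, 2.14% of the middle group and 4.55% of the widest group, each of about equal number. Beyond 100 kb from any MDA-MB-231 H3K27me3 peak it was found on 96 regions (4.33%), and within 5 kb of one on 21 (0.94%). By chromosome it reached 5.56% on chromosome 19, with 17 regions, and was 0.402% on chromosome 8, with 4. The opposite pattern, H3K4me3 in MCF-10A only, was also most frequent on lone regions. It was found on 23 of them (1.22%), on 16 in chains of 2 to 4 (0.621%) and on 3 in domains of 5 or more (0.107%). By width it was found on 0.454%, 0.412% and 0.868% from the narrowest to the widest group. Beyond 100 kb the share was 0.856%, and within 5 kb 0.537%. These shares are descriptions, since regions of 1 line are not replicates.

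H3K9me2 on the MCF-10A-only regions went the other way. An H3K9me2 peak touched 228 (3.14%) and 199 (2.74%) of them in MDA-MB-231, against 446 (6.14%) and 358 (4.93%) in MCF-10A. Over all merged H3K27me3 regions the order of the lines was the reverse, with 7.05% and 5.21% in MDA-MB-231 and 4.26% and 3.37% in MCF-10A. H3K9me2 in both MDA-MB-231 lists and neither MCF-10A list was found on 47 regions (0.647%, against 2.34% of all merged H3K27me3 regions). H3K9me2 in both MCF-10A lists and neither MDA-MB-231 list was found on 185 (2.55%, against 1.2% of all). The count of 47 was 97 without MDA-MB-231 H3K9me2 replicate 1, 128 without MDA-MB-231 replicate 2 and 9 with H3K9me2 peaks of score 100 or more. Both H3K9me2 lists of MDA-MB-231 were shorter than those of MCF-10A, and with H3K9me2 lists cut to equal length the count of 47 was 54.

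In limma on all H3K9me2 regions, 55 of 361 tested on MCF-10A-only regions were higher in MDA-MB-231 (15.2%, against 20.2% of all 8576 tested) and 171 were lower (47.4%, against 49.2% of all). Both shares were near or below those of all H3K9me2 regions, and the same limit of the filter holds for 50 of the 55 and for 169 of the 171. With lists of equal length 62 were higher and 92 lower. Without MDA-MB-231 replicate 1 or 2 the higher count was 3 and 5, and without MCF-10A replicate 1 or 2 the lower count was 1 and 2. Among the 60 H3K9me2 regions present in all 4 lists, 5 were higher in MDA-MB-231 (8.33%, against 8.45% of all 959 such regions) and 2 were lower (3.33%, against 2.61%). Both MDA-MB-231 values exceeded both MCF-10A values in 20 of the 60 (33.3%, against 38.9% of all) and lay below both in 14 (23.3%, against 17% of all).

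An MCF-10A-only region was touched by 646 of the 17981 merged H3K9me2 regions (3.59%). Of the 646, 50 (7.74%) were present in MDA-MB-231 alone, against 9.19% of all H3K9me2 regions, and 169 (26.2%) in MCF-10A alone, against 23.3% of all. Both shares lay near those of all H3K9me2 regions. The 50 are named by the lower of their MDA-MB-231 score percentiles. The first, chr6:40522698-40532344, covered 9207 and 9647 bp in MDA-MB-231 and was listed at 0 in both MCF-10A lists, and here too the values describe the choice and carry no test. The second, chr10:49902286-49908019, covered 5734 and 4517 bp in MDA-MB-231 and 0 and 0 bp in MCF-10A. Less of these stretches lay on the H3K27me3 they touched than of the H3K4me3 stretches, and they were wider, with a median of 2614 bp against 1118 bp. Of the 50, 17 lay at least 50% inside MCF-10A-only regions, and MCF-10A H3K27me3 peaks covered a median of 33.3% and 42.2% of their bases in replicates 1 and 2. They lay a median of 2.63 kb from an MDA-MB-231 H3K27me3 peak, and the other 1603 H3K9me2 regions of MDA-MB-231 alone a median of 0 kb. The 165 MDA-MB-231-only H3K4me3 regions lay a median of 111 kb from one, and the other 920 a median of 121 kb, so the distances differed between the marks elsewhere as well. Of the 47 MCF-10A-only regions with this pattern, 27 lay within 5 kb of an MDA-MB-231 H3K27me3 peak and 3 beyond 100 kb.

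The H3K9me2 found only in MCF-10A was concentrated on chromosomes 8 and 16. These held 21.3% of the MCF-10A-only regions, 91 of the 185 regions with H3K9me2 in MCF-10A only (49.2%) and 13 of the 187 with H3K4me3 in MDA-MB-231 only (6.95%). Both chromosomes also held less H3K9me2 as a whole in MDA-MB-231, by the shares of covered bases given above.

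The overlap of H3K4me3 and H3K9me2 on MCF-10A-only regions was not counted over all merged H3K27me3 regions, so it is a description. None of the 7268, that is 0, carried both H3K4me3 and H3K9me2 in MDA-MB-231 only. With these patterns on only 187 and 47 regions, a count of 0 does not set the regions apart. A peak of each mark in any of the lists was held by 19. Most regions, 6027 (82.9%), carried no peak of either mark in any list of either line. An H3K4me3 peak of any list was found on 7.72% of MCF-10A-only regions, against 2.55% of all merged H3K27me3 regions. For H3K9me2 these shares were 9.62% and 11.6%. Other classes of H3K27me3 regions also lay above the 2.55% for H3K4me3. The share was 7.34% for regions in all 4 lists, 5.79% for those in both MCF-10A lists and 1 MDA-MB-231 list and 4.26% for MDA-MB-231-only regions. For H3K9me2 the shares of these 3 classes were 25.5%, 18.6% and 24.9%. A further count used the merged regions of each mark by the lists that held them, without a share over all merged H3K27me3 regions. H3K4me3 regions of MDA-MB-231 only lay on 171 MCF-10A-only H3K27me3 regions and within 5 kb of 278 (3.82%). Those of MCF-10A only lay on 46 and within 5 kb of 89 (1.22%). For H3K9me2 regions of MDA-MB-231 only, the counts were 51 on and 152 (2.09%) within 5 kb. For those of MCF-10A only, they were 188 on and 518 (7.13%) within 5 kb.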

How the data were processed

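The 12 peak lists of the study were used, 1 per mark, line and replicate. The labels' protocols state that the replicates were normalised and combined for later work, whereas the deposited lists are per replicate. Tools listed in the submitters' processing notes are MACS 1.4, Bowtie2, CASAVA 1.6 and bedtools, and the build there is hg19; roles and settings are not given in the sources used here. The deposited score of each peak is the authors' own value on a scale not given in the sources used here.

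Peaks on autosomes were merged per mark where they overlapped by at least 1 bp. Covered bases per merged region and list were tested as log2(bp + 100) with limma 3.58.1 (trend, empirical Bayes, R 4.3.3) on regions covered in at least 2 of 4 lists, with Benjamini-Hochberg adjustment at 0.05; this scale understates changes of narrow regions, and a ratio against a line listed at 0 depends on the added bases and is not given. The procedure was tested on simulated data. Other steps used Python 3.11.15, NumPy 2.4.6, pandas 2.3.3 and matplotlib 3.10.9. The named regions were the 20 with the highest lower MCF-10A score percentile, the 10 domains with most members, and the 20 H3K4me3 and 10 H3K9me2 regions of MDA-MB-231 only with the highest lower percentile. The regions, rules and tests were chosen with earlier results of these data known. Gene lists and distances to gene starts were not analysed here. The lists hold no read counts, so no interval for depth is given. The alternatives were other pseudocounts, filters, scaling, score limits, list lengths, overlaps, gaps, a replicate block and leaving out each list.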

Additional observations from a re-analysis of the deposited data

How the results depend on the processing

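The number of MCF-10A-only regions was 2796 with peaks of score 100 or more and 2801 with lists of equal length, and 7671 to 21147 with 1 H3K27me3 list left out. Their share in domains of 5 or more was 22.8% with gaps of 20 kb, 51.3% with 100 kb, 21.6% at score 100 or more, 21.7% with equal lists, 34.1% without chromosome 8 and 40.7% to 64.6% with 1 list left out. Regions with H3K4me3 in MDA-MB-231 only numbered 200 to 246 with 1 H3K4me3 list left out, within 1.5 times of 187. Those with H3K9me2 in MDA-MB-231 only numbered 9 at score 100 or more and 55 to 128 with 1 H3K9me2 list left out. Counted by merged H3K9me2 regions of MDA-MB-231 only, 152 lay within 5 kb of such a region. The causes were not tested, except that fewer peaks enter at higher scores and fewer lists are needed when 1 is left out.

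With 1 list left out, the lone list of a line is assumed to vary like the other line, and regions of that line alone drop out by the filter. H3K4me3 regions higher in MDA-MB-231 then numbered 18 to 266, and lower 0 to 30. Of those in all 4 lists, 18 to 61 were higher and 0 to 2 lower. H3K9me2 regions higher numbered 3 to 59 and lower 1 to 200. Lower H3K4me3 regions numbered 26 when at least 50% inside MCF-10A-only regions and 29 when those were called at score 100 or more. For H3K9me2, 17 were higher and 97 lower when 50% inside, and 33 higher and 79 lower with regions called at score 100 or more. With H3K9me2 peaks of score 100 or more, 11 were higher and 64 lower, and with equal lists 92 were lower. Of H3K4me3 regions in all 4 lists, 24 were higher at score 100 or more; 2 were lower there, 2 with a pseudocount of 1000 bp and 1 with scaling to total coverage.

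The replicate numbers are not stated to mark a shared batch, and deviations of same-numbered lists correlated at 0.17 over H3K4me3 regions and 0.0387 over H3K9me2 regions. With the replicate number as a block, 196 H3K4me3 regions were higher and 45 lower, 29 and 1 of those in all 4 lists, and 53 H3K9me2 regions were higher and 169 lower. Chosen after seeing the data were the settings on members defined without MDA-MB-231 H3K27me3 replicate 1 and on leaving out chromosome 8. The same holds for all settings of the H3K4me3 regions in all 4 lists. It also holds for the counts of MCF-10A-only regions with H3K4me3 or H3K9me2 in MDA-MB-231 only, with all their settings, proximity among them. Alternatives were run for the 30 named H3K4me3 and H3K9me2 regions of MDA-MB-231 alone, whose direction is fixed by their choice, and for the regions on chromosomes 3 and 2 with H3K4me3 in all 4 lists. The H3K9me2 region at chr17:25992428-25997477 lost its call without MCF-10A replicate 2 (limma adjusted p = 0.0503), and the chromosome 3 region at score 100 or more; 3 of the 30 gave no value at that score. The named H3K27me3 regions and domains were not rerun singly. The settings planned for distance to a transcription start were not run, since no hg19 annotation was used here. Depth limits cannot be given without read counts.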
